A study of Mus musculus with 4 samples.

Results

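A set of 10 genes that Müller glia use for their work in the retina were followed by mRNA sequencing in sorted mouse retinal cells. They were Glul, Slc1a3, Aqp4, Kcnj10, Vim, Car2, Car14, Clu, Gpr37 and Dbi. They were chosen by name, with earlier results of these data known. Each was a single row with status OK in all 4 libraries, so 10 of the 21831 genes measured are described. The cells came from retina at postnatal day 12 on the slc:ICR background and were sorted by staining of Cd73, the Nt5e product found on the surface of rods and rod precursors. Cells with Cd73 (Cd73P) and cells without it (Cd73N) were each sequenced from wild type (WT) and from a retina-specific conditional knockout of Ezh2 (Ezh2-cKO), with 1 library for each of the 4 groups. Ezh2 encodes the histone H3 lysine 27 methyltransferase of the Polycomb complex PRC2. The knockout joined floxed Ezh2 with Dkk3-Cre, in which regulatory DNA of Dkk3 turns on Cre in the embryonic progenitors of the retina. Littermates without the knockout served as WT. Cells were freed with trypsin before the sort. The study's discussion states that the sort was kept fast at a cost in purity, so each fraction can hold cells of the other. How many animals were pooled for each library at this age is not given in the sources used here.

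Müller glia are the main supporting glia of the retina and are among its last cells to be born. They span the retina from the inner to the outer limiting membrane. They take up the glutamate that neurons release and turn it into glutamine, which is given back to neurons. They also carry potassium and water out of the tissue, buffer carbon dioxide, and hold the retina together with intermediate filaments. Transcripts of such genes belong in the Cd73N fraction, because the Cd73P fraction is meant to hold rods.

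Levels are given as FPKM, a fragment count divided by the exon length of the gene and by the mapped total of its library, as deposited and with no further scaling. Ratios are on the log2(FPKM + 1) scale, which understates differences of genes with low FPKM, and a gene is called higher or lower once it differs by 1.5-fold after the addition of 1. The standard error (SE) of a ratio was derived from the deposited FPKM bounds and covers counting error within libraries only. With 1 library per group no difference has a replicate check, and no p-value is given. Library depth relative to Cd73N WT, derived from the same bounds over 3495 rows, was 0.994 to 1.16. The targeted gene went against 1 label. Ezh2 was at 14.1 FPKM in Cd73N WT and 15.9 FPKM in the Cd73N library labelled Ezh2-cKO, and at 5.38 and 3.45 FPKM in Cd73P. A gene-level FPKM cannot show whether a floxed exon was lost, and the word "labelled" is kept for these libraries throughout. Nt5e was at 0.844 and 0.609 FPKM in Cd73N and at 125 and 123 FPKM in Cd73P, so the fraction labels held. The genotypes also differed in sex-linked transcripts. The summed FPKM of 4 Y-linked genes was 26.8 and 27.9 in the WT libraries and 0.716 and 0.496 under the label Ezh2-cKO, and Xist was at 52.2 and 240 FPKM in Cd73N and at 47.0 and 95.6 FPKM in Cd73P. Genotype and the sex of the animals therefore cannot be told apart, although none of the 10 genes lies on X or Y.

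The promoters of these genes are shown because their transcripts moved together between the Cd73N libraries. RefSeq windows were found for 7 of the 10 genes, in 8 windows. No window was found for Car2, Clu and Aqp4. The 250 bases before each start were placed on mm9, the build of the files, by exact match, and all 8 were found once on their chromosome. Those of Glul (chr1:155746809-155747058, plus strand), Slc1a3 (chr15:8660808-8661057, minus strand) and Kcnj10 (chr1:174271091-174271340, plus strand) overlap no annotated exon and are printed 5′ to 3′ on the strand of the gene. The capitals mark CCAAT and TATAAA on either strand.
Glul: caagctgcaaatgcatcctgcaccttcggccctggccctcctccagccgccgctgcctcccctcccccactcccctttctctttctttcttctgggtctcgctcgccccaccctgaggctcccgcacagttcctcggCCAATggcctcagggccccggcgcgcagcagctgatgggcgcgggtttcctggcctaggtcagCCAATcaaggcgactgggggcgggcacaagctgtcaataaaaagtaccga
Slc1a3: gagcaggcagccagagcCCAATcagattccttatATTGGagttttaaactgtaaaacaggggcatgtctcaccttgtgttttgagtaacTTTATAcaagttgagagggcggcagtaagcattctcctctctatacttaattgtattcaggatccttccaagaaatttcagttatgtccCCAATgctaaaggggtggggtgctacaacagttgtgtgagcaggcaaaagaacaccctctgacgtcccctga
Kcnj10: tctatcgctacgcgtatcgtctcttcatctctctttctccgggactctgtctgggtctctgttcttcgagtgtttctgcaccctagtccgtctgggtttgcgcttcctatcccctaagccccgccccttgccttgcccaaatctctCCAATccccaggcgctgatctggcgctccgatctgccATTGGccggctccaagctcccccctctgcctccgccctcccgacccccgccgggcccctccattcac
The Slc1a3 and Kcnj10 windows end at the base before the listed start of the gene, and the Glul window ends 16 bases short of it. The 8 windows are not all separate upstream sequences. The 2 Dbi windows overlap each other and hold 152 and 160 bases of annotated exons. The Gpr37 and Vim windows lie wholly within annotated exons. CCAAT, the CCAAT box, was present in 5 of the 8 windows and in 33.8% of all 32851 windows of this length. TATAAA, the letters of the TATA box, was present on either strand in 2 of the 8, those of Slc1a3 and Vim, and in 12.4% of all windows. The Slc1a3 match reads TTTATA, so it lies on the strand opposite to the gene and is not shown to be a TATA box. GGGCGG, the GC box, was present in 4 of the 8 and in 32.7% of all. TTGGC, a half-site of the NFI factors that overlaps CCAAT where both share bases (ATTGGC), was present in 5 of the 8 and in 41.5% of all. ACAAAG, a core that SOX factors bind, was present in none of the 8 and in 16.5% of all windows, a statement about these letters in these windows only. The Slc1a3 window had a GC content of 44.8%, below the median of 52.4% over all windows, and the other 7 windows had 58.4% to 64.8%.

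The libraries labelled Ezh2-cKO and WT were compared within Cd73N to ask how genes of the non-rod cells differ with Ezh2 genotype. In Cd73N all 10 genes were higher in the library labelled Ezh2-cKO, by 2.01-fold to 10.1-fold in plain FPKM, with a median of 3.49-fold. Among all 21705 genes compared, 7.18% were higher and 1.71% were lower by the same rule. Among the 6865 genes that reached an FPKM of 10 in either library, 8.06% were higher and 3.64% were lower. Because the 10 genes were chosen with earlier results of these data known, these shares are no independent check of their calls. The median log2 ratio was 1.78 for the 10 genes, against 0 for all genes and -0.16 for those reaching an FPKM of 10. The summed FPKM of the 10 genes was 1005 in Cd73N WT and 3826 in the library labelled Ezh2-cKO, which was 0.247% and 1.04% of the FPKM of the library. In bulk samples a change in the number of cells of a type and a change in RNA per cell cannot be told apart.

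**Figure D1:**
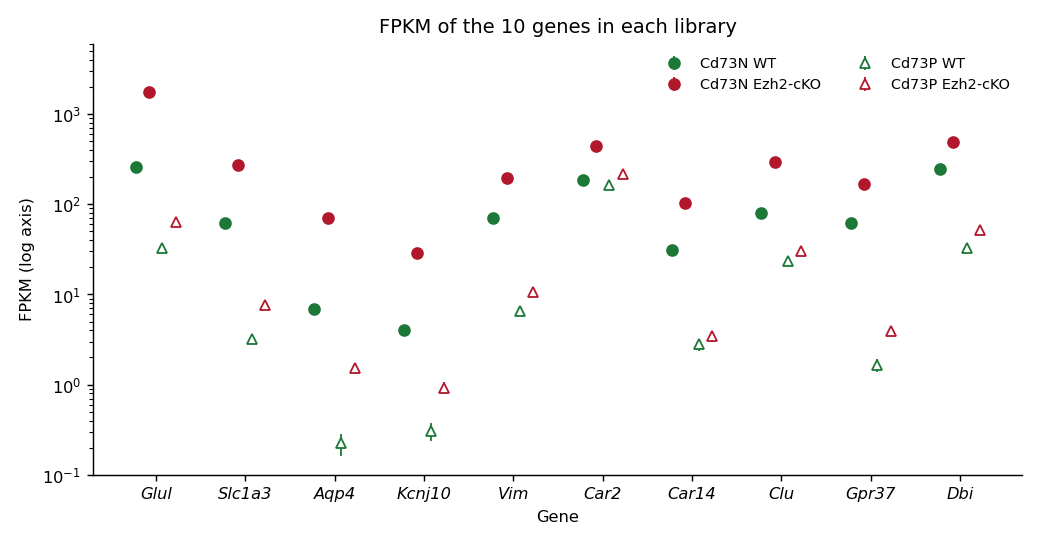
FPKM of each of the 10 genes (log axis) in the 4 libraries: circles are Cd73N and triangles Cd73P, green is WT and red is labelled Ezh2-cKO, and bars are 2 counting SE on each side, with 1 library per point. In every gene the red circle is the highest point, and in every gene except Car2 the Cd73P triangles lie well below the circles.

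In glutamate recycling, Glul encodes glutamine synthetase, which makes glutamine from glutamate and ammonia (chromosome 1, 155747075 to 155756844, mm9). Glul was at 257 FPKM in Cd73N WT, 1760 FPKM in the Cd73N library labelled Ezh2-cKO, 32.8 FPKM in Cd73P WT and 63.9 FPKM in the Cd73P library labelled Ezh2-cKO. It was the highest of the 10 genes in Cd73N, and among 21692 genes ranked by FPKM its place went from 257 to 4. The log2 ratio between genotype labels was 2.77 (SE 0.011) in Cd73N and 0.94 (SE 0.034) in Cd73P. Glul made up 25.6% of the summed FPKM of the 10 genes in Cd73N WT and 46.0% in the library labelled Ezh2-cKO. Its first 264 bases overlap the opposite-strand gene 5830403L16Rik, which was at 0.060 FPKM or less in all libraries, and its 3′ part overlaps the gene models A930039A15Rik and Gm11074, which have no row in these tables. Because the kit does not mark strand, reads from those models cannot be told apart from Glul reads there.

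Slc1a3 encodes GLAST, the glutamate transporter by which Müller glia clear glutamate (chromosome 15, 8584124 to 8660807). Slc1a3 was at 62.8 FPKM in Cd73N WT and 270 FPKM in the Cd73N library labelled Ezh2-cKO, and at 3.19 and 7.64 FPKM in Cd73P. Both Cd73N values lay above both Cd73P values. The log2 ratio between genotype labels was 2.09 (SE 0.018) in Cd73N and 1.04 (SE 0.074) in Cd73P, and the latter was the largest of the 10 in Cd73P by a margin within counting error of that of Aqp4.

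Most other genes of glutamate uptake and nitrogen handling did not share this pattern. Of 17 listed, 15 reached an FPKM of 1 in Cd73N, and 3 were higher, none was lower and 12 were between the thresholds. The median log2 ratio was -0.089. The highest of the list, Atp1b2, a beta subunit of the sodium pump, was at 574 and 539 FPKM in Cd73N. Among those that were higher were Glud1, glutamate dehydrogenase, at 36.9 and 63.8 FPKM, and Slc1a4, a neutral amino acid transporter, at 3.55 and 5.94 FPKM. Slc1a2, the transporter GLT-1, was at 47.1 and 60.9 FPKM in Cd73N and at 46.6 and 55.9 FPKM in Cd73P, so all 4 of its levels lay within 1.5-fold of each other.

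Water and potassium handling was represented by Aqp4 and Kcnj10, the lowest of the 10 genes in WT. Aqp4 encodes the water channel of glial endfeet (chromosome 18, 15547903 to 15562193). Aqp4 was at 6.89 FPKM in Cd73N WT, 69.6 FPKM in the Cd73N library labelled Ezh2-cKO, 0.223 FPKM in Cd73P WT and 1.51 FPKM in the Cd73P library labelled Ezh2-cKO. Its log2 ratio in Cd73N, 3.16 (SE 0.041), was the largest of the 10 and ranked 11 among all 21705 genes compared. With a pseudocount of 5 it was 2.65, below the 2.75 of Glul. In Cd73P the log2 ratio was 1.04 (SE 0.064), while the plain fold was 6.76. That fold rests on a WT value whose bounds imply only 55.2 fragments, the fewest behind any value of the 10 genes.

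Kcnj10 encodes Kir4.1, the inward rectifier through which Müller glia release potassium (chromosome 1, 174271341 to 174304216). Kcnj10 was at 3.99 and 29.0 FPKM in Cd73N and at 0.308 and 0.925 FPKM in Cd73P, WT first. The log2 ratio was 2.59 (SE 0.052) in Cd73N, ranked 29 among all genes compared. In Cd73P it was 0.56 (SE 0.063), just short of the threshold of 0.58, although the plain fold was 3.01. Both Cd73P values were below 1 FPKM, where the added 1 holds the ratio down.

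Of 15 other genes of potassium and water handling, 9 reached an FPKM of 1 in Cd73N, and 4 of these were higher, 1 was lower and 4 were between. The median log2 ratio was 0.49. Among the higher genes were Kcnk1 (14.4 and 31.5 FPKM, a tandem-pore potassium channel and the largest ratio at 1.07, SE 0.055), Aqp9 and Dag1, and the lower one was Aqp11. Dag1 was the highest of the list in the Cd73N library labelled Ezh2-cKO, at 21.8 and 33.8 FPKM. Dag1 encodes dystroglycan, which helps to hold Aqp4 and Kcnj10 at the endfoot membrane. Kcnj16 and Kcnj2, other inward rectifiers, were below 0.4 FPKM in every library. In Cd73P the water channel Aqp1 was at 21.5 FPKM in WT and 76.9 FPKM in the library labelled Ezh2-cKO, while in Cd73N it was at 1.55 and 1.26 FPKM. The 2 water channels thus lay mainly in opposite fractions.

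Vim encodes vimentin, the main intermediate filament of Müller glia (chromosome 2, 13495938 to 13504453). Vim was at 71.1 and 197 FPKM in Cd73N and at 6.62 and 10.7 FPKM in Cd73P. The log2 ratio was 1.46 (SE 0.028) in Cd73N and 0.62 (SE 0.094) in Cd73P, where its interval of 0.43 to 0.80 spans the threshold. Among 11 other filament and linker genes, 9 reached an FPKM of 1 in Cd73N, 2 were higher, none was lower and 7 were between, with a median log2 ratio of 0.25. The higher ones were Gfap, the filament of astrocytes and reactive Müller glia, at 2.86 and 11.4 FPKM (log2 ratio 1.68, SE 0.074), and Plec, the linker plectin, at 1.90 and 4.34 FPKM. Ina, a neuronal filament and the highest of the list, was at 34.2 and 30.0 FPKM.

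The carbonic anhydrases Car2 and Car14 interconvert carbon dioxide and bicarbonate, Car2 in the cytosol and Car14 at the cell surface. Car2 (chromosome 3, 14886426 to 14900770) was at 187 FPKM in Cd73N WT, 445 FPKM in the Cd73N library labelled Ezh2-cKO, 163 FPKM in Cd73P WT and 215 FPKM in the Cd73P library labelled Ezh2-cKO. It was the only one of the 10 genes that differed by less than 1.5-fold between the fractions in WT, and it made up 61.0% of their summed FPKM in Cd73P WT. The log2 ratio between genotype labels was 1.25 (SE 0.017) in Cd73N and 0.40 (SE 0.021) in Cd73P. Red blood cells also carry Car2. The summed FPKM of 6 red blood cell markers was 3207 and 2979 in Cd73N and 24.7 and 20.1 in Cd73P, where 2 of the 6 reached an FPKM of 1 and 1 was listed at 0. The part of red blood cells in the Cd73N level of Car2 was not tested.

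Car14 (chromosome 3, 95701723 to 95708562) was at 31.1 and 103 FPKM in Cd73N and at 2.79 and 3.46 FPKM in Cd73P. The log2 ratio was 1.69 (SE 0.048) in Cd73N and 0.24 (SE 0.12) in Cd73P, the smallest of the 10 there. Its last 489 bases overlap the opposite-strand gene Aph1a, which was at 57.8 and 48.6 FPKM in Cd73N, slightly lower in the library labelled Ezh2-cKO. Of 14 other carbonic anhydrases only 4 reached an FPKM of 1 in Cd73N, and all 4 were between the thresholds. The highest was Car10, a catalytically inactive member, at 142 and 99.6 FPKM in Cd73N and at 5.35 and 1.30 FPKM in Cd73P (log2 ratio -1.46, SE 0.089, in Cd73P). The largest ratio in Cd73N was that of Car10 at -0.51, and the largest positive one was that of the mitochondrial Car5b at 0.45, from 0.783 to 1.43 FPKM.

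Of 11 genes of bicarbonate, proton and lactate transport, which act beside carbonic anhydrases, 10 reached an FPKM of 1 in Cd73N. They were split, with 1 higher, 1 lower and 8 between and a median log2 ratio of 0.021. Both that passed carry lactate. Slc16a1, the transporter MCT1, was at 21.8 and 71.8 FPKM (log2 ratio 1.67, SE 0.030), and Slc16a3, the transporter MCT4, was at 29.1 and 13.7 FPKM (log2 ratio -1.04, SE 0.052). Bsg, the chaperone of both and the highest of the list, was at 498 and 509 FPKM. Slc4a4, the sodium bicarbonate cotransporter, was at 1.73 and 2.71 FPKM (log2 ratio 0.44).

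Clu encodes clusterin, a secreted chaperone (chromosome 14, 66587320 to 66600382). Clu was at 80.0 and 294 FPKM in Cd73N and at 23.3 and 30.0 FPKM in Cd73P. The log2 ratio was 1.86 (SE 0.026) in Cd73N and 0.35 (SE 0.052) in Cd73P. Gpr37, a membrane receptor (chromosome 6, 25618523 to 25639980), was at 61.9 and 169 FPKM in Cd73N and at 1.64 and 3.92 FPKM in Cd73P, with log2 ratios of 1.43 (SE 0.021) and 0.90 (SE 0.096). In WT Gpr37 had the largest log2 ratio of Cd73N over Cd73P of the 10 genes. Of 10 relatives and partners of Clu and Gpr37, 6 reached an FPKM of 1 in Cd73N, 1 was higher and 5 were between, with a median log2 ratio of 0.065. Ednrb, an endothelin receptor close in sequence to Gpr37, was the one that was higher, at 6.04 and 15.1 FPKM (log2 ratio 1.20, SE 0.054). Gpr37l1, the nearest relative of Gpr37, was at 0.516 and 0.757 FPKM. Psap, which encodes prosaposin and was the highest of the list, was at 229 and 244 FPKM.

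Dbi encodes the diazepam binding inhibitor, an acyl-CoA binding protein that is also cut into endozepine peptides (chromosome 1, 122009857 to 122017673). Dbi was at 244 and 490 FPKM in Cd73N and at 33.1 and 52.4 FPKM in Cd73P. The log2 ratio was 1.01 (SE 0.036) in Cd73N, the smallest of the 10, and 0.65 (SE 0.083) in Cd73P. Of 12 related genes, all 12 reached an FPKM of 1 in Cd73N, and 1 was higher, 2 were lower and 9 were between, with a median log2 ratio of 0.037. Tspo, the mitochondrial protein that binds Dbi peptides, was at 2.21 and 5.50 FPKM (log2 ratio 1.02, SE 0.16). The fatty acid binding genes Fabp7 (77.5 and 48.3 FPKM) and Fabp5 (88.9 and 58.6 FPKM) were lower. Scd2, a fatty acid desaturase and the highest of the list, was at 126 and 167 FPKM.

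**Figure D2:**
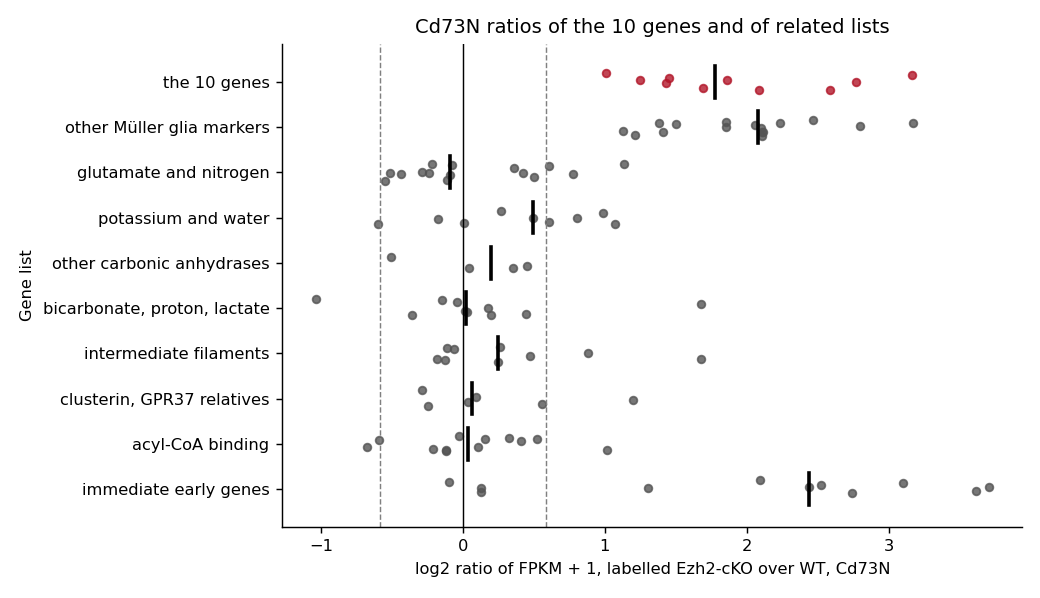
Each point is the log2 ratio of FPKM + 1 between the Cd73N library labelled Ezh2-cKO and Cd73N WT for 1 gene that reached an FPKM of 1 in either library, by gene list, with list medians as black bars and 1.5-fold as dashed lines. The 10 genes (red), the other Müller glia markers and most immediate early genes lie right of the upper line, while the medians of the related pathway lists lie between -0.089 and 0.49.

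The 10 genes were set beside 16 other Müller glia markers. These were listed with earlier results of these data known, so their genotype ratios are no independent check of the label of the set. In WT 15 of the 16 were higher in Cd73N than in Cd73P, against 27.9% of all genes compared. The other, Rdh10, was between the thresholds (log2 ratio 0.27, SE 0.043). In Cd73N all 16 were higher under the label Ezh2-cKO, and their median log2 ratio was 2.08, and their summed FPKM was 1038 and 3914. The largest ratio was that of Cyp26a1, which breaks down retinoic acid, at 3.04 and 35.4 FPKM (log2 ratio 3.17, SE 0.099), and the highest level that of Apoe, the lipid carrier, at 357 and 1532 FPKM. In Cd73P 10 of the 15 that reached an FPKM of 1 were higher and none was lower, with a median log2 ratio of 0.96. The largest there was Dapl1, at 4.22 and 18.9 FPKM (log2 ratio 1.93, SE 0.16). Some of these markers differed from the 10 genes in one respect. Dapl1 and Crym, a thyroid hormone binding protein, had a larger log2 ratio in Cd73P (1.93 and 1.79) than in Cd73N (1.21 and 1.38), which none of the 10 genes had. Dkk3, whose regulatory DNA drives the Cre, is itself high in Müller glia and was at 123 and 916 FPKM in Cd73N and 5.32 and 28.8 FPKM in Cd73P.

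Within Cd73P the 10 genes were then compared between the genotype labels. All 10 ratios were above 0, but 6 of the 10 passed the threshold, none was lower and 4 were between. The 6 were Slc1a3, Aqp4, Glul, Gpr37, Dbi and Vim, and the 4 were Kcnj10, Car2, Clu and Car14. Of all 21706 genes compared in Cd73P, 2.26% were higher and 2.39% were lower, and among the 5636 that reached an FPKM of 10 in 1 library, 3.25% and 2.08%. The median log2 ratio of the 10 genes was 0.63, against 0 over all genes and -0.046 over those that reached an FPKM of 10. The call of Vim and Dbi rests on intervals that include the threshold (0.43 to 0.80 and 0.48 to 0.81), as does the miss of Kcnj10 (0.43 to 0.68). Neighbours in the order of these ratios differed beyond counting error in 2 places only, between Gpr37 and Dbi and between Kcnj10 and Car2.

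In Cd73N more neighbours differed beyond counting error. From the largest log2 ratio to the smallest it ran Aqp4, Glul, Kcnj10, Slc1a3, Clu, Car14, Vim, Gpr37, Car2 and Dbi, and only Vim and Gpr37 were within counting error of each other (difference 0.023, interval -0.046 to 0.092). The 4 genes of glutamate, water and potassium handling thus held the 4 largest ratios, from 2.09 to 3.16, and the other 6 genes had 1.01 to 1.86. Each gene had a smaller log2 ratio in Cd73P than in Cd73N. In plain FPKM the fold was smaller in Cd73P for all 10 genes as well, but for Gpr37 (2.73 and 2.39) the difference was within counting error. How wide the gap was for each gene depends on the added 1, because Aqp4 and Kcnj10 were below 0.31 FPKM in Cd73P WT. On the log2(FPKM + 1) scale the gap was widest for Aqp4, at -2.12 (SE 0.076), and narrowest for Dbi, at -0.36 (SE 0.091). In plain FPKM the ratio of the Cd73N fold to the Cd73P fold was largest for Glul, at 3.51, and smallest for Gpr37, at 1.14. It was 2.42 for Kcnj10, 1.49 for Aqp4 and 1.27 for Dbi, so Aqp4 went from the widest gap to the third narrowest.

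**Figure D3:**
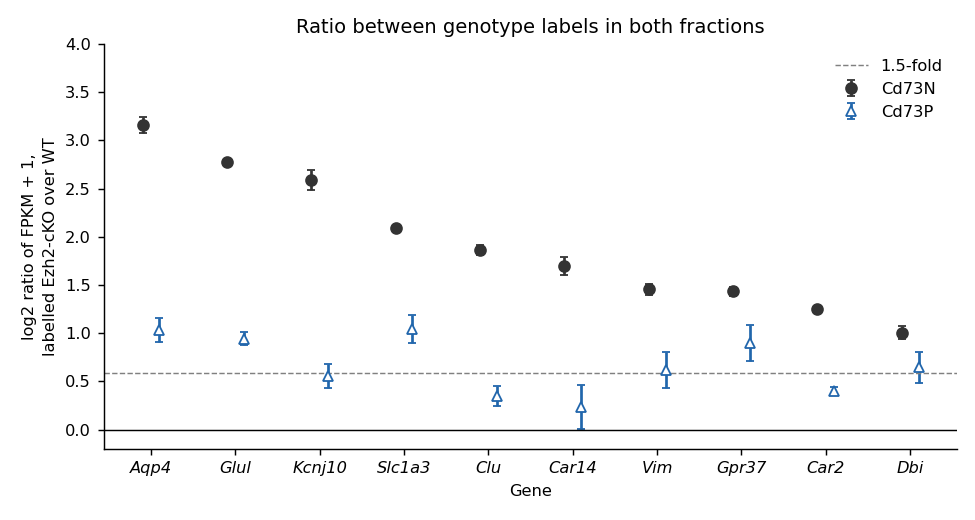
Log2 ratio of FPKM + 1 between the library labelled Ezh2-cKO and the WT library for each of the 10 genes, in Cd73N (filled circles) and Cd73P (open triangles), with 95% intervals for counting error and the 1.5-fold line dashed. All circles lie above the line, from 1.01 to 3.16, and the triangles lie lower in every gene, from 0.24 to 1.04.

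Cd73N was next set against Cd73P of the same genotype, to ask how closely the 10 genes followed the sort. In WT 9 of the 10 genes were higher in Cd73N, and Car2 was between the thresholds (log2 ratio 0.20, SE 0.022). Of all 21704 genes compared, 27.9% were higher in Cd73N and 9.07% were lower, and among those that reached an FPKM of 10 in 1 library, 46.3% and 16.6%. The median log2 ratio of the 10 genes was 2.89, against 0.050 over all genes and 0.49 over those that reached an FPKM of 10. The largest was that of Gpr37, at 4.57 (SE 0.076). In the libraries labelled Ezh2-cKO all 10 genes were higher in Cd73N, with a median of 4.31, and Car2 had a log2 ratio of 1.04 (SE 0.017). Of all genes there, 29.1% were higher and 8.4% were lower, and 42.1% and 17.1% among those that reached an FPKM of 10. Their median log2 ratios were 0.090 over all genes and 0.40 over those that reached an FPKM of 10. The comparisons of genotypes and of fractions use the same 4 libraries and are not independent of each other.

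Scaling the libraries moved plain log2 ratios between fractions by -0.31 (median ratio scaling) or -0.43 (equal FPKM sums) in WT and by -0.27 or -0.22 in the libraries labelled Ezh2-cKO. Under both scalings the WT ratio of Car2 turned to -0.11 and -0.23, so no direction between fractions can be given for Car2 in WT. The other 9 genes kept theirs, since their log2 ratios were at least 1.73.

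The Cd73P level as a percentage of the Cd73N level shows the same values on a plain scale. In WT it had a median of 9.14% over the 10 genes and ran from 2.65% (Gpr37) and 3.24% (Aqp4) to 29.2% (Clu) and 87.1% (Car2). In the libraries labelled Ezh2-cKO the median was 3.50%, and the percentage was lower for all 10 genes. It was 12.8% and 3.63% for Glul, 7.72% and 3.19% for Kcnj10, 29.2% and 10.2% for Clu, and 13.6% and 10.7% for Dbi. For Gpr37 it was 2.65% (SE 0.22) and 2.32% (SE 0.12), a difference within counting error. In absolute terms Glul was higher by 1503 FPKM in Cd73N and by 31.1 FPKM in Cd73P, and Car2 by 259 and 52.9 FPKM.

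**Figure D4:**
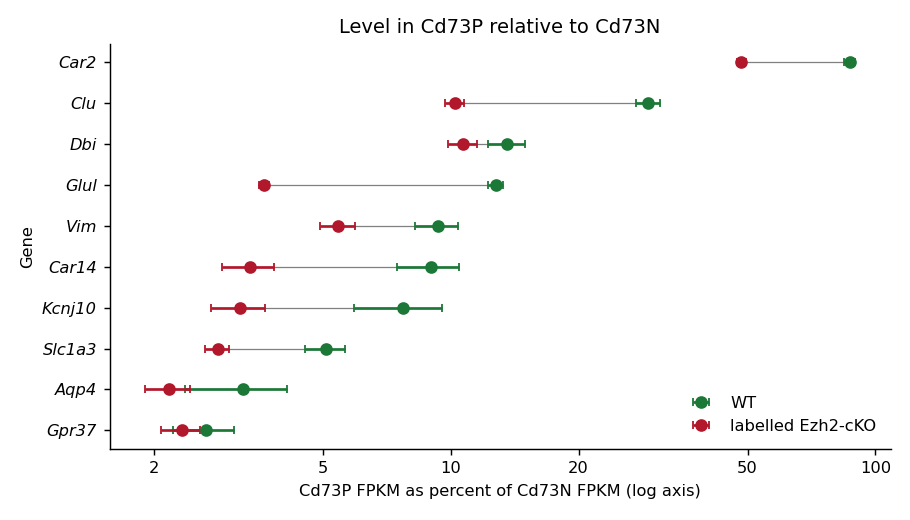
Cd73P FPKM as a percentage of Cd73N FPKM (log axis) for each of the 10 genes in WT (green) and in the libraries labelled Ezh2-cKO (red), with 95% intervals for counting error. Every red point lies left of its green point, Gpr37 by the least, and Car2 stands apart at 87.1% and 48.4%.

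Values that moved with these results were taken from lists of other cells. In Cd73N the immediate early genes, which are induced by stress and dissociation, had a median log2 ratio of 2.44, with 8 of 11 higher and none lower, and their summed FPKM was 270 and 1356. Fosb had the largest ratio, at 1.67 and 33.9 FPKM, and Fos the highest level, at 53.3 and 465 FPKM. In Cd73P 3 of the 11 were higher and 2 were lower, with sums of 215 and 208. Their part in the ratios of the 10 genes was not tested. Of 5 astrocyte markers, 4 reached an FPKM of 1 in Cd73N and 3 were higher (Gfap, Aldh1l1 and S100b), with sums of 9.22 and 25.1 FPKM, and Pax2, the marker of optic nerve head astrocytes, was at 0.161 and 0.326 FPKM. The part of astrocytes was not tested. Microglia markers summed to 69.3 and 105 FPKM, with 4 of 8 higher. Endothelial and pericyte markers summed to 251 and 343 FPKM, with 1 of 8 higher (Kdr, at 22.6 and 86.2 FPKM, log2 ratio 1.89) and 1 lower, and oligodendrocyte markers summed to 26.1 and 19.2 FPKM.

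Among neurons, bipolar markers summed to 2098 FPKM in Cd73N WT and 1137 FPKM in the library labelled Ezh2-cKO, with 5 of 10 lower, and cone markers summed to 4721 and 6078 FPKM, with 3 of 10 higher. Rod markers summed to 1899 and 1972 FPKM in Cd73N, with 6 of 12 lower, and to 22446 and 29760 FPKM in Cd73P. Amacrine markers had 2 of 5 higher in Cd73N and sums of 32.7 and 78.8 FPKM, most of them from Pax6 at 20.4 and 63.5 FPKM. Ganglion cell markers had 2 of 6 higher and 1 lower, with sums of 16.5 and 42.7 FPKM, most of the difference from Thy1 at 6.52 and 30.3 FPKM. Horizontal markers had 0 of 2 past the threshold, with sums of 94.0 and 63.8 FPKM, nearly all from Prox1 at 92.7 and 61.9 FPKM. Lhx1, Onecut1 and Gja10 of that list were each at 0.213 FPKM or less in Cd73N, so these sums follow Prox1 and not the list as a whole. No pigment epithelium marker reached an FPKM of 1 in Cd73N. Since FPKM is a share of each library, the part of the lower bipolar share in the higher level of the 10 genes was not tested.

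The 10 genes were also compared with each other and with all genes by profile, which is log2(FPKM + 1) over the 4 libraries with its own mean removed. Among the 10, Glul and Aqp4 were the closest pair on this scale (distance 0.30), followed by Vim and Car14 (0.35). The closeness of Glul and Aqp4 depends on the added 1, since Aqp4 was at 0.223 FPKM in Cd73P WT. In plain FPKM the Cd73P level in WT was 12.8% of the Cd73N level for Glul and 3.24% for Aqp4. Their plain folds between genotype labels in Cd73P were 1.95 and 6.76. Car2 was the farthest from 8 of the other 9, and from Clu the farthest was Gpr37. Among 7590 other single-row genes with an FPKM of at least 10 in 1 or more libraries, the 10 nearest to the mean profile of the set were Frzb, Ppap2b, Rrh, Cryab, Begain, Agt, S100a16, Espn, Qrfpr and Tril, at distances of 0.17 to 0.34, where the median of these genes was 3.29. Frzb, a secreted Wnt antagonist, was the nearest, at 7.52 and 30.8 FPKM in Cd73N and 0.305 and 0.798 FPKM in Cd73P. Cryab, the small heat shock protein alpha-B crystallin, was at 26.1 and 83.0 FPKM in Cd73N and 2.42 and 5.40 FPKM in Cd73P. The likeness was measured over 4 libraries only. Of the 10 genes, Vim was nearest to their mean (0.46, with 30 other genes nearer) and Car2 the farthest (2.77, with 1983 nearer).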

How the data were processed

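Poly(A) RNA from sorted retinal cells was sequenced as 36-base single-end reads. According to the submitters' processing notes, bcl2fastq 1.8.4, TopHat2 2.0.8b (up to 50 hits per read) and Cufflinks 2.1.1 were used with mm9. The deposited tables hold FPKM per gene, computed by the authors with Cufflinks, with a lower and an upper bound and a status, and no read totals, so absolute depth is unknown. The build was checked against GENCODE on mm9: of 21166 symbols with 1 row and a shared chromosome, the start matched for 10206 once 1 was added, and coordinates are printed with that 1.

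Rows sharing a symbol were summed (235 symbols on 641 rows), 727 small RNA symbols were left out, and the 23021 rows gave 21831 genes. A gene without OK status in a library was left out of its pairs. Ratios were log2(FPKM + 1), with 1.5-fold, the study's threshold, as the call. The width of the bounds was taken as 4 standard errors. The midpoint of the bounds divided by the SE, then squared, gave the implied fragments, from 55.2 to 156081 for the 10 genes. Values of 3 to 8 of the 10 genes per library lay above their own upper bound, so the midpoint of the bounds was also tried, an alternative chosen after seeing the data. A list was summarised over the genes that reached an FPKM of 1 in either library of the pair.

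The 10 genes, the lists, the settings and the rule for named genes were chosen with earlier results of these data known. Named were the 10 genes, label checks, of each list the genes with the highest level and the largest ratio, and the 10 nearest profiles; some genes of the lists were named for their role or call after their values were seen. A few list genes covered by it are not reported here. Counting was tested on simulated data. Alternatives were pseudocounts of 0.1 and 5 or none, 2 scalings, a 2-fold threshold, bounds that must not overlap, a minimum FPKM of 10 in both libraries, and means for medians. Python 3.11.15, numpy 2.4.6, pandas 2.3.3 and matplotlib 3.10.9 were used. Promoter windows were from RefSeq (GRCm38.p6), re-placed on mm9 by exact match.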

Additional observations from a re-analysis of the deposited data

Results flagged for a closer look

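The log2 ratio of Ezh2 between the library labelled Ezh2-cKO and WT had opposite signs in the fractions, 0.17 in Cd73N against -0.52 in Cd73P, so that Cd73P minus Cd73N was -0.69. With 1 library per group this difference was not tested.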

How the results depend on the processing

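The call of all 10 genes as higher in Cd73N of the label Ezh2-cKO held under every setting that kept all 10. The number of genes higher in Cd73P, 6, was 7 with a pseudocount of 0.1, 7 under median ratio scaling and 5 under FPKM sum scaling. It was 5 of the 8 genes kept with no pseudocount, 3 with a pseudocount of 5 and 2 at a 2-fold threshold. It was 2 of the 4 genes with an FPKM of at least 10 in both libraries. Under that minimum FPKM the genes higher in Cd73N than in Cd73P were 3 of 4 in WT and 5 of 5 in the label Ezh2-cKO. The median log2 ratio between genotype labels in Cd73N, 1.78, was 1.70 with a pseudocount of 5, 1.85 and 1.92 under median ratio and FPKM sum scaling, 1.57 with the minimum FPKM and 1.93 as a mean. In Cd73P, 0.63 became 0.82 and 0.41 with pseudocounts of 0.1 and 5. Between fractions in WT, 2.89 became 3.36 and 2.46 with those pseudocounts, and 3.20 with none, over the 8 genes kept. It became 2.58 and 2.48 under median ratio and FPKM sum scaling, 2.29 with the minimum FPKM and 2.72 as a mean. In the label Ezh2-cKO, 4.31 became 4.80 and 3.60, 4.78 with none (9 genes kept), 4.06 and 4.11, 3.25 and 3.97 in the same order. Only Car2 reversed, between fractions in WT, to -0.11 and -0.23 under the scalings. The order of the genes moved with the pseudocount. With 5, Glul (2.75) passed Aqp4 (2.65) and Slc1a3 (2.02) passed Kcnj10 (1.92) in Cd73N. Between fractions in the label Ezh2-cKO, Gpr37 was the largest with 1 (5.11), Aqp4 with 0.1 (5.44 against 5.39) and Glul with 5 (4.68 against 4.28). Of 235 values of single genes recomputed, 121 moved by less than their counting error, 112 moved by more and 2 reversed. Causes not set by the alternative's own construction were not tested. No paired analysis was possible because each group has 1 library and the labels carry no replicate numbers.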
